A study of Mus musculus with 2 samples.

Results

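Dendritic cells are sentinels of epithelial tissues. They take up antigen, move to lymph nodes and present peptides on MHC class II molecules to T cells. They comprise conventional DC1 and DC2, mature migratory and plasmacytoid forms, and each form is known by a small set of genes. Here 10 such genes were followed, out of 32285 in the count matrices, and all 10 were found there. Flt3, Zbtb46 and Itgax are genes of dendritic cells in general, Xcr1, Clec9a and Wdfy4 of DC1, Cd209a of DC2, Ccr7 and Fscn1 of mature migratory cells, and Siglech of plasmacytoid cells. Transcripts were counted by their unique molecular identifiers (UMIs), so that each captured molecule counts once, in 10x Genomics single cell libraries of mammary glands of female mice, labelled 9 to 10 weeks old. The Ctrl library is from control mice, and the CL library from mice given clodronate liposomes, vesicles whose drug kills phagocytes that engulf them. Both hold sorted CD45+ immune cells and CD31-TER119- cells, in a proportion not stated. Each group is 1 library from an unstated number of mice, so that differences between groups have no replicate check and no test was made. Every interval below is an exact 95% interval (Clopper-Pearson for shares, Poisson for UMI sums, conditional binomial for ratios) and covers counting error only.

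After filtering, 5937 Ctrl cells (median 11351 UMIs) and 8826 CL cells (median 10337 UMIs) were kept. Immune-like clusters held 275 Ctrl cells (4.63%) and 1007 CL cells (11.4%). None of the 10 genes was used to cluster or name cells. Of the immune-like cells, 213 Ctrl and 735 CL cells were T- and NK-like, 41 and 43 macrophage-like, 11 and 165 monocyte-like, 3 and 18 B- and plasma-like, and 2 and 20 neutrophil-like. A sub-cluster of 5 Ctrl and 26 CL cells could not be named, because its scores for monocyte (2.49, 4 markers) and DC2 genes (2.22, 4 markers) were close. It was led by Cd74, H2-Eb1, H2-Ab1 and H2-Aa and is called the DC-marker sub-cluster below. A further sub-cluster, of 8 Ctrl and 2 CL cells, had a higher DC2 score (3.57, 5 markers). It was counted as macrophage-like, because that score lay below 60% of its macrophage score (6.54, 9 markers). The DC-marker sub-cluster made up 1.82% (0.593 to 4.19) of the immune-like cells of Ctrl and 2.58% (1.69 to 3.76) of those of CL. With removed doublets kept in, the matching sub-cluster was 3.33% of immune-like cells in Ctrl (1.61 to 6.04%) and 2.59% in CL (1.74 to 3.70%), so that the order of the libraries turned, with overlapping intervals both times. Of 34 retained cells whose barcode was a candidate in both libraries, 1 was immune-like and it did not lie in the DC-marker sub-cluster.

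Positions are those of GENCODE M21 on GRCm38. Flt3, the receptor tyrosine kinase for the growth factor Flt3l, lies at chr5:147330741-147400489 (minus strand), and Zbtb46, a zinc finger transcription factor of conventional dendritic cells, at chr2:181387762-181459426 (minus strand). Itgax, the integrin chain CD11c, lies at chr7:128129547-128150657 (plus strand). Among the DC1 genes, the chemokine receptor gene Xcr1 lies at chr9:123852315-123862029 (minus strand), the gene of the dead cell receptor Clec9a at chr6:129408862-129424763 (plus strand), and Wdfy4, needed for cross-presentation, at chr14:32959547-33185508 (minus strand). Cd209a, a C-type lectin gene with close paralogs, between which reads may be split uncertainly, lies at chr8:3743397-3748984 (minus strand). The lymph node homing receptor gene Ccr7 lies at chr11:99144196-99155077 (minus strand), the actin bundling gene Fscn1 at chr5:142960343-142973185 (plus strand), and the sialic acid binding lectin gene Siglech at chr7:55768178-55778925 (plus strand).

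Promoter sequence from RefSeq (GRCm38) was matched for 9 of the 10 genes, all but Ccr7. For Flt3, Xcr1, Cd209a and Clec9a, shown because the DC-marker cells held 48% or more of their UMIs over both libraries and their starts in RefSeq and GENCODE coincide, the 250 bases before the start are printed 5′ to 3′ on the strand of the gene. Capitals mark GGAAGT or its reverse complement ACTTCC, a core that ETS factors such as Spi1 (PU.1) can bind.
Flt3, minus strand, chr5:147400490-147400739: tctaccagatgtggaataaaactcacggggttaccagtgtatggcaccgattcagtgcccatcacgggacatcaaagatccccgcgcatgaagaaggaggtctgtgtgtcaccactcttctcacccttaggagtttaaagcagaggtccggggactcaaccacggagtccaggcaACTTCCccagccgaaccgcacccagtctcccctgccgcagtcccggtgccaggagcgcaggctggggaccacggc
Xcr1, minus strand, chr9:123862030-123862279: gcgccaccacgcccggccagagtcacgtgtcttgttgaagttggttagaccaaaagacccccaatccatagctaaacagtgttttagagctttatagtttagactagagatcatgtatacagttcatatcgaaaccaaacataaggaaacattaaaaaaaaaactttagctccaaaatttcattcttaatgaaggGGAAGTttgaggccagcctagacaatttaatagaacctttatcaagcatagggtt
Cd209a, minus strand, chr8:3748985-3749234: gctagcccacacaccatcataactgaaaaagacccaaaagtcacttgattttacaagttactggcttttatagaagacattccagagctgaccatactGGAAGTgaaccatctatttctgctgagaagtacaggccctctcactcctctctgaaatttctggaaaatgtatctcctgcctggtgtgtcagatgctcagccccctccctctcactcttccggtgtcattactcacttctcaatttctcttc
Clec9a, plus strand, chr6:129408612-129408861: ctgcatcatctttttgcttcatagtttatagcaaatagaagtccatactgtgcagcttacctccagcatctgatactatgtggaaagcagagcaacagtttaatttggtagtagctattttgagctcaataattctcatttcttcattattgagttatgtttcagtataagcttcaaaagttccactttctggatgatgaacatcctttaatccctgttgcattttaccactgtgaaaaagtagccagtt
Searched on both strands, GGAAGT was found in this window in 6 of the 9 genes (Flt3, Cd209a, Itgax, Xcr1, Wdfy4 and Siglech) and in 19.7% of all 32851 promoters. The AP-1 motif TGANTCA, searched the same way, was found in Itgax and Zbtb46 and in 6.75% of all promoters. The windows of Zbtb46 (chr2:181424389-181424638) and Wdfy4 (chr14:33185067-33185316) start from RefSeq and lie inside the GENCODE spans given above. The printed windows of Flt3 and Xcr1 held 13 and 5 CG dinucleotides, those of Cd209a and Clec9a 1 and 0, and the median promoter 6. These are matches of letters and were not tested as binding sites.

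The genes fell apart by where their UMIs were found. Of the UMIs of retained cells in both libraries together, immune-like cells held 98% for Cd209a, 97% for Ccr7, 96.9% for Itgax, 96.8% for Wdfy4, 95.2% for Siglech, 92% for Clec9a, 88% for Xcr1 and 82.8% for Flt3. For Zbtb46 and Fscn1 it was 6.69% and 2.18%, where immune-like cells held 3.74% of all UMIs of retained cells. By level, in UMIs of the gene per 1000000 UMIs of the cells (CPM), Zbtb46 stood at 7.80 and 5.92 CPM in immune-like cells of Ctrl and CL, against 3.29 and 3.51 CPM in the other cells, and Fscn1 at 5.20 and 1.32 against 4.13 and 3.31 CPM. The DC-marker sub-cluster held 90% of all Cd209a UMIs, 75.9% of Flt3, 71.4% of Siglech, 60% of Clec9a, 48% of Xcr1 and 47.4% of Wdfy4 UMIs. It held 19% of Ccr7, 7.18% of Itgax and 1.67% of Zbtb46 UMIs, and none of Fscn1. These shares pool the libraries, and CL held most UMIs of several genes. In Ctrl the sub-cluster held 16 of 17 Cd209a, 3 of 4 Flt3 and 3 of 9 Wdfy4 UMIs. It held none of the 3 Siglech, 2 Clec9a and 2 Xcr1 UMIs of Ctrl, all of which lay in macrophage-like cells, as did 5 of 9 Wdfy4 UMIs.

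**Figure D1:**
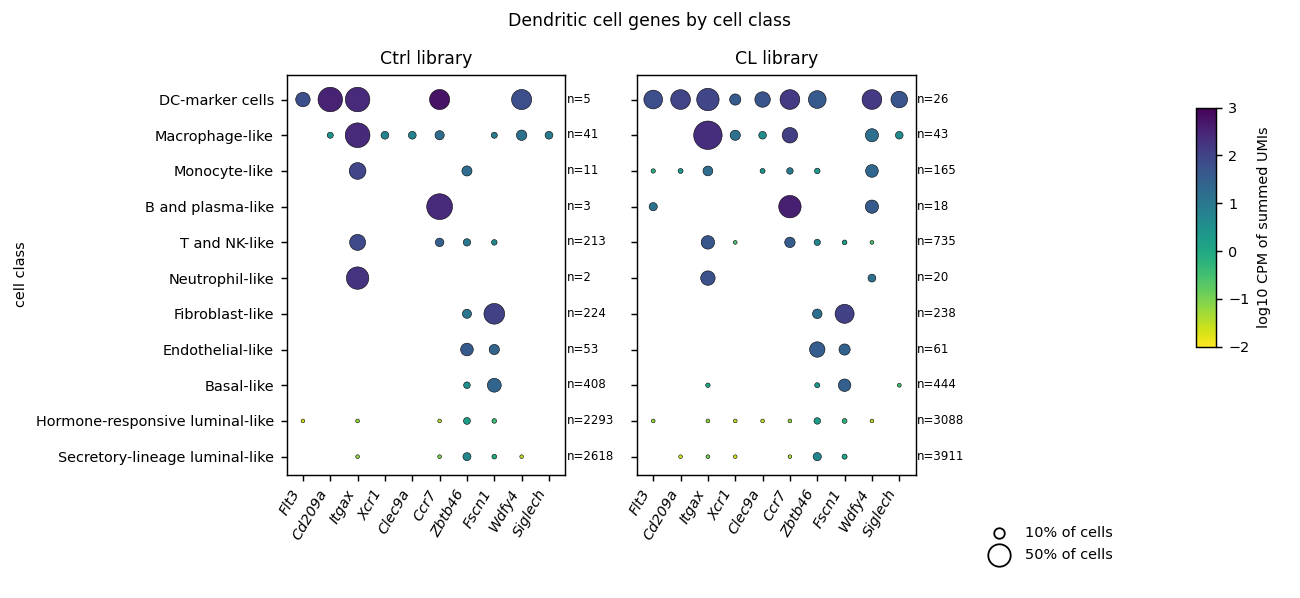
Level of the 10 genes in the cell classes, Ctrl library at left and CL library at right. Colour gives log10 CPM of the summed UMIs, dot area the share of cells with a UMI, a missing dot 0 UMIs, and n the number of cells; in CL all genes but Fscn1 have dots in the DC-marker cells, while Zbtb46 and Fscn1 also have dots across fibroblast-like, endothelial-like and epithelial-like classes.

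Levels as CPM compare classes for 1 gene, not genes with each other. Flt3 stood at 63 CPM (13 to 184) in DC-marker cells of Ctrl, from 3 UMIs in 1 cell, and at 64.2 CPM (38.7 to 100.3) in those of CL, from 19 UMIs in 9 of 26 cells. The other immune-like cells had 0 Flt3 UMIs in Ctrl and 2 in CL. Epithelial-like cells had 1 and 4 Flt3 UMIs in 5319 and 7443 cells. Flt3 thus lay mainly in the DC-marker cells, where the intervals of the libraries overlapped.

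Itgax had a wider range of classes. Its level was 258 CPM (206 to 318) in macrophage-like cells of Ctrl and 224 CPM (184 to 269) in those of CL. In DC-marker cells it was 252 CPM (130.2 to 440.2) and 91.2 CPM (60.1 to 133). In T- and NK-like cells it was 74.7 CPM (59.3 to 92.9) in Ctrl and 45.4 CPM (38.9 to 52.6) in CL, and in monocyte-like cells 90.1 CPM (29.3 to 210.3) and 17.7 CPM (11.2 to 26.6). In Ctrl the intervals of macrophage-like and DC-marker cells overlapped, and in CL those of macrophage-like cells lay above those of each other class named here. CD11c is also found on NK cells: among T- and NK-like cells, those with no Cd3 UMI and a UMI of the NK genes Ncr1 or Klrb1c had 171 CPM (113 to 247) of Itgax in Ctrl and 60.7 CPM (40 to 88.3) in CL. Those with a Cd3 UMI had 27.2 CPM (15.8 to 43.5) and 30.9 CPM (24.6 to 38.4). The intervals of the libraries lay apart in the former cells and overlapped in the latter.

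Zbtb46 was found in 8 of 26 DC-marker cells of CL, at 40.5 CPM (21 to 70.8), and in 0 of 5 of Ctrl. Endothelial-like cells had overlapping intervals, with 40.9 CPM (20.4 to 73.2) in Ctrl and 35.9 CPM (21.3 to 56.7) in CL. Zbtb46 is a known endothelial gene too. Epithelial-like cells held 82.7% of its UMIs, below their 93.8% of all UMIs. Secretory-lineage luminal-like cells held 147 and 235 UMIs, at 4.89 and 5.40 CPM, and hormone-responsive luminal-like cells 84 and 107, at 1.74 and 1.71 CPM. Macrophage-like cells had 0 Zbtb46 UMIs in Ctrl and 0 in CL. Droplets of 100 to 300 UMIs, which hold free RNA, stood at 2.45 CPM in Ctrl and 2.25 CPM in CL, above the level of the hormone-responsive cells.

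The DC1 genes were found in few cells. Xcr1 reached 40.5 CPM (21 to 70.8) in DC-marker cells of CL, from 12 UMIs in 3 cells, 10 of them in 1 cell. Clec9a reached 50.7 CPM (28.4 to 83.6) there, from 15 UMIs in 6 cells. The 5 DC-marker cells of Ctrl had 0 UMIs of either, which at 3 counts allows up to 63.0 CPM, so that a difference from CL was not detectable at this depth. Macrophage-like cells had 2 Xcr1 UMIs in Ctrl (5.99 CPM) and 7 in CL (13.9 CPM), and 2 and 2 Clec9a UMIs. Wdfy4 had a broader range, with 63 CPM (13 to 184) and 142 CPM (102 to 192) in DC-marker cells of Ctrl and CL. It stood at 15 and 15.8 CPM in macrophage-like cells and at 22.3 CPM (15 to 32.1) in monocyte-like cells of CL, where 25 of 165 cells had a UMI. T- and NK-like cells had 0 Wdfy4 UMIs in Ctrl and 1 in CL.

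Cd209a lay most narrowly in the DC-marker cells. These held 16 UMIs in 3 of 5 Ctrl cells, at 336 CPM (192 to 546), and 29 UMIs in 10 of 26 CL cells, at 98 CPM (65.6 to 141). In Ctrl, 1 cell carried 14 of those 16 UMIs. The other immune-like cells had 1 and 3 Cd209a UMIs. Siglech, the plasmacytoid gene, had 15 UMIs in 7 DC-marker cells of CL, at 50.7 CPM (28.4 to 83.6), and 0 in those of Ctrl. Macrophage-like cells had 3 and 2 Siglech UMIs.

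Ccr7 was shared among immune classes, as T cells, B cells and mature dendritic cells all use it to reach lymph nodes. B- and plasma-like cells of CL had 363 CPM (239 to 528), with a UMI in 9 of 18 cells, and T- and NK-like cells 32.3 CPM (22.5 to 44.9) in Ctrl and 37.8 CPM (31.9 to 44.5) in CL. In Ctrl 1 of the T- and NK-like cells held 14 of the 35 UMIs, and without the highest cell of each library the log2 ratio of CL over Ctrl in this class went from 0.23 (-0.31 to 0.80) to 0.86 (0.19 to 1.60). Within the class, cells with a Cd3 UMI had 50.4 CPM (43 to 58.7) over both libraries, and cells with NK genes and no Cd3 4.93 CPM (1.02 to 14.4). DC-marker cells had 567 CPM (374 to 825) in Ctrl, where 1 cell held 25 of the 27 UMIs, and 145 CPM (105 to 196) in CL. Macrophage-like cells had 18 CPM (6.60 to 39.1) in Ctrl, from 3 of 41 cells, and 117 CPM (88.9 to 151) in CL, from 10 of 43 cells. Fscn1, known from mature dendritic cells, had 0 UMIs in all 31 DC-marker cells. It stood at 107 CPM (92.7 to 123) and 106 CPM (90.9 to 124) in fibroblast-like cells and at 25 CPM (20.2 to 30.6) and 30.1 CPM (24.2 to 36.9) in basal-like cells. Immune-like cells had 8 Fscn1 UMIs in each library, at 5.20 and 1.32 CPM.

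By level, free RNA was highest for Zbtb46, Fscn1 and Itgax. In droplets of 100 to 300 UMIs Itgax stood at 1.09 CPM (0.562 to 1.90) in Ctrl and 1.89 CPM (1.17 to 2.89) in CL. The 54275 droplets of 100 to 300 UMIs in Ctrl held 2 Flt3, 4 Cd209a, 12 Itgax and 3 Ccr7 UMIs, and the 55973 in CL held 0, 1, 21 and 10. Zbtb46 is given above, and Fscn1 stood at 3.27 and 2.16 CPM in these droplets, so that its level in immune-like cells of CL lay below that background. No such droplet held UMIs of 2 of the 10 genes, but only 85 in Ctrl and 87 in CL held any. At their median depth of 202 and 196 UMIs this cannot show how free RNA adds to co-detection in cells. In epithelial-like cells, which should lack them, Itgax was found in 0.0940% of Ctrl and 0.161% of CL cells and Ccr7 in 0.0940% and 0.0806%. Their medians were 12509 and 11952 UMIs, against 5013 and 4811 in immune-like cells. With each cell thinned to 2000 UMIs, Itgax was found in 16 of 39 macrophage-like cells of Ctrl and 15 of 42 of CL, and in 1 of 5192 and 4 of 7267 epithelial-like cells.

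Co-detection in single cells sets cells with several of the genes apart from cells that share 1 gene with dendritic cells. UMIs of 2 or more of the 10 genes were found in 17 of 275 immune-like cells of Ctrl (6.18%, 3.64 to 9.71) and in 56 of 1007 of CL (5.56%, 4.23 to 7.16), so that the intervals of the libraries overlapped. With each cell thinned to 2000 UMIs, the shares fell to 2 of 250 (0.800%, 0.0970 to 2.86) and 14 of 934 (1.5%, 0.822 to 2.50), and CL stood above Ctrl, again with overlapping intervals. With 3 or more genes at full depth there were 4 Ctrl cells and 20 CL cells (1.45% and 1.99%). Background was 3 of 5319 (0.0564%) and 9 of 7443 (0.121%) in epithelial-like cells. In fibroblast-like cells 8 of 224 and 11 of 238 co-detected, and 19 of these cells paired Zbtb46 with Fscn1. No cell outside the immune-like clusters held 3 or more of the genes.

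**Figure D2:**
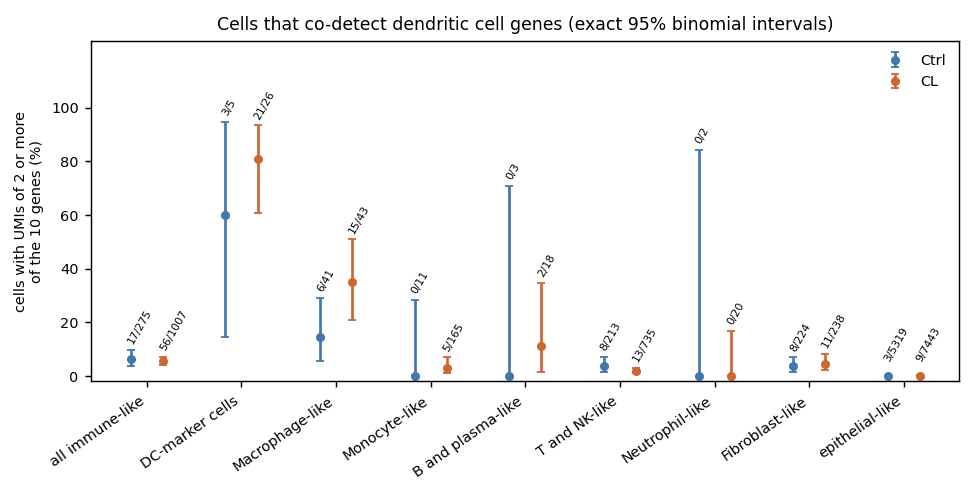
Share of cells with UMIs of 2 or more of the 10 genes in each cell class, Ctrl and CL, with exact 95% binomial intervals as bars and the counts of co-detecting and all cells printed. DC-marker cells stand highest (3 of 5 and 21 of 26), macrophage-like cells next (6 of 41 and 15 of 43), and epithelial-like cells near 0.

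By class, 3 of 5 DC-marker cells of Ctrl (60%, 14.7 to 94.7) and 21 of 26 of CL (80.8%, 60.6 to 93.4) co-detected. Macrophage-like cells followed with 6 of 41 (14.6%, 5.57 to 29.2) and 15 of 43 (34.9%, 21 to 50.9). They chiefly paired Itgax with Ccr7 (10 cells over both libraries) or with Wdfy4 (8 cells). T- and NK-like cells gave 8 of 213 (3.76%, 1.64 to 7.27) and 13 of 735 (1.77%, 0.945 to 3.01), and 13 of these cells paired Itgax with Zbtb46. Monocyte-like cells gave 0 of 11 and 5 of 165, and B- and plasma-like cells 0 of 3 and 2 of 18. Depth differed between classes, and with each cell thinned to 2000 UMIs co-detection was 1 of 4 and 5 of 23 in DC-marker cells, 0 of 39 and 5 of 42 in macrophage-like cells, and 1 of 194 and 3 of 686 in T- and NK-like cells. At either depth, co-detection of 2 genes was not limited to the DC-marker cells.

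The 31 DC-marker cells differed in which genes they carried. In Ctrl, a cell of 10942 UMIs had 3 Flt3, 1 Cd209a and 2 Itgax UMIs. A cell of 18794 UMIs had 6 Itgax, 25 Ccr7 and 2 Wdfy4 UMIs, and a cell of 9282 UMIs had 1 Cd209a, 4 Itgax, 2 Ccr7 and 1 Wdfy4 UMI. Of the other Ctrl cells, 1 held 14 Cd209a UMIs alone and 1 held no member UMI. In CL, 7 cells had Xcr1 or Clec9a and all 7 co-detected, 5 of them with Flt3 and 5 with Wdfy4. The cell with most members (7 of 10, at 26025 UMIs) had 4 Flt3, 4 Itgax, 10 Xcr1, 6 Clec9a, 2 Ccr7, 1 Zbtb46 and 13 Wdfy4 UMIs. It also had 27 UMIs of Irf8, a transcription factor gene of DC1 and plasmacytoid cells. The same cell had 332 UMIs of the monocyte marker gene Lyz2, where the next highest DC-marker cell had 38.
The 7 cells with Siglech, all of CL, looked otherwise. Of these, 4 had Flt3, 3 Cd209a, 1 Xcr1 or Clec9a, and 0 Wdfy4. Their median was 16 Cd74 UMIs and 19 Bst2 UMIs, where the 7 cells with Xcr1 or Clec9a had medians of 307 and 6. The ranges overlapped, from 0 to 418 against 2 to 727 for Cd74 and from 1 to 38 against 1 to 18 for Bst2. Irf8 was at 0 in 5 of the 7 cells with Siglech and had a median of 4 in the 7 with Xcr1 or Clec9a. Cd74 encodes the invariant chain of MHC class II, and Bst2 encodes tetherin, high in plasmacytoid cells. Median depth was 10501 UMIs in the former and 17078 in the latter, and its part in these counts was not tested. Of the 12 cells with Ccr7, 7 had Wdfy4, 6 had Cd209a and 1 had Siglech. C1qa, a complement gene that leads the macrophage-like cluster, had 0 UMIs in all 31 cells.

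**Figure D3:**
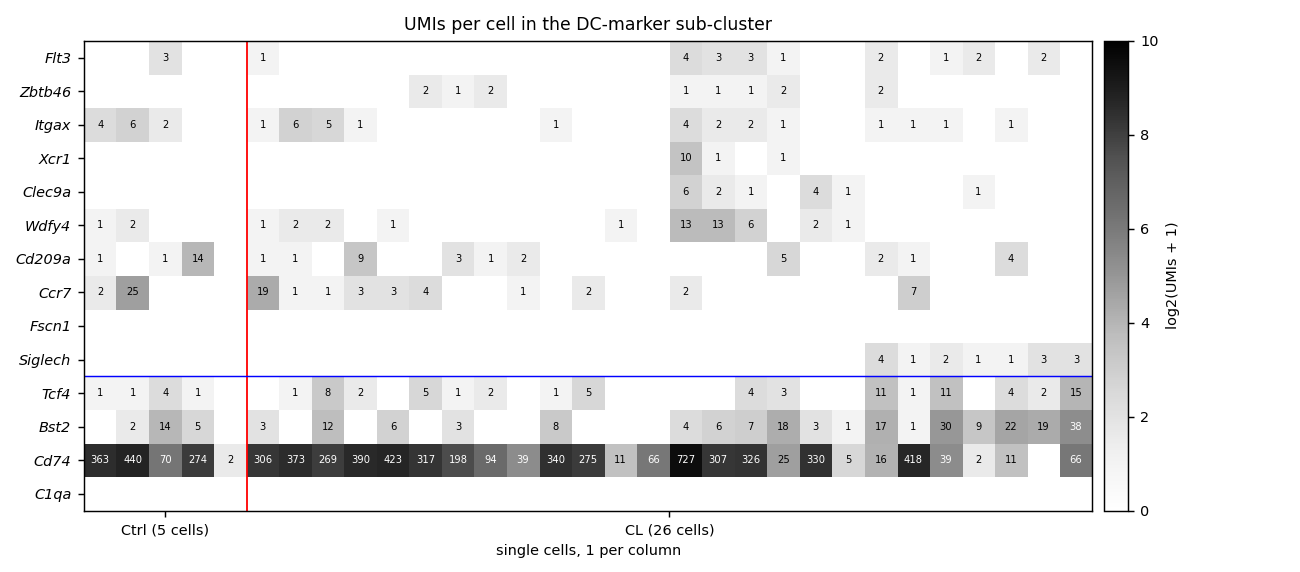
UMIs per cell in the 31 cells of the DC-marker sub-cluster, 1 column per cell, with the Ctrl cells left of the red line and the CL cells right of it; the 10 genes stand above the blue line and other genes below. Xcr1 and Clec9a share 1 of their 7 cells with Siglech, and C1qa and Fscn1 are at 0 throughout.

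Other genes of the dendritic forms were counted from lists that hold none of the 10. These genes took part in the clustering, so the counts describe the sub-cluster and are no test. In CL, 10.2% of 10068 genes were at least 2-fold higher in DC-marker cells than in other immune-like cells and 27.5% at least 2-fold lower. In Ctrl, 12.7% of 6651 genes were higher and 37.3% lower, from only 5 cells. In CL, of the DC1 list, 6 of 7 genes with enough UMIs were at least 2-fold higher, and by UMIs the list was led by the lysosomal thioesterase gene Ppt1 (log2 ratio 1.92, 1.52 to 2.30), Irf8 (-0.92, -1.30 to -0.56), which was lower, and Cd24a (1.21, 0.78 to 1.62). In the 5 Ctrl cells the DC1 list gave 0 of 5, with 4 at least 2-fold lower. Of the DC2 list 3 of 6 in CL and 4 of 6 in Ctrl were higher, with Cd7 at 1.57 (1.30 to 1.82), Tnip3 at 2.97 (2.61 to 3.32) and the lectin gene Clec10a at 3.61 (2.73 to 4.46) in CL. In Ctrl the other 2 of the 6 were at least 2-fold lower, and Cd7 was 1 of these, at -1.14 (-2.14 to -0.29). The plasmacytoid list gave 4 of 6 in CL and 2 of 4 in Ctrl, in CL with Bst2 at 2.00 (1.77 to 2.21), the transcription factor gene Tcf4 at 2.98 (2.58 to 3.37) and the homing receptor gene Ccr9 at 6.11 (5.12 to 7.23). The list shared by dendritic cells gave 3 of 4 in CL and 2 of 3 in Ctrl, in CL led by Cbfa2t3 (2.76, 2.07 to 3.41) and H2-Oa (2.87, 2.08 to 3.62), and the mature list 0 of 4 in CL and 2 of 4 in Ctrl. Of the mature list Samsn1 (0.72, 0.34 to 1.07) and Relb (0.15, -0.42 to 0.67) had most UMIs.
All 8 genes of antigen presentation were at least 2-fold higher in CL, with Cd74 at 2.1 (2.06 to 2.14) and H2-Ab1 at 2.41 (2.35 to 2.47), and so were 6 of 6 in Ctrl. Of the costimulation list 3 of 6 in CL were, with the CD28 ligand gene Cd86 at 1.98 (1.65 to 2.30) and Cd274, the gene of PD-L1, at -0.04 (-0.65 to 0.50). Of the transcription factors of dendritic cells 3 of 8 in CL were, with Spi1 at 1.40 (1.07 to 1.70) and Id2 at -0.90 (-1.24 to -0.58). The growth factor and chemokine partners gave 2 of 6 higher and 4 at least 2-fold lower, with Csf2rb at 2.37 (2.09 to 2.64) and Csf2ra at 1.35 (0.89 to 1.78). In Ctrl the costimulation list gave 2 higher and 1 lower of 4, the transcription factors 2 and 3 of 7, and the partners 2 and 2 of 4. Markers of other classes were mostly low in the DC-marker cells of CL. The 9 macrophage markers summed to 47.3 CPM against 1537 in other immune-like cells, with 2 at 0, and the 11 T and NK markers to 30.4 against 4402 CPM, with 6 at 0. The 8 monocyte markers stood closer, at 3548 against 4790.0 CPM, with 4 at 0. In Ctrl they stood level, at 1596 against 1565 CPM, with Plac8 (log2 ratio 1.42) and Ccr2 (1.73, from 1 cell) at least 2-fold higher and 5 of 7 at least 2-fold lower. In the 5 Ctrl cells the 9 secretory-lineage markers summed to 2205 CPM, against 2027 in other immune-like cells. Of the 7 with enough UMIs 5 were at least 2-fold higher, led by Kit (log2 ratio 4.59) and Mfge8 (3.31), with Cd14 lower (-1.84). Each of those 5 genes was found in only 1 or 2 of the 5 cells, and their part in the Ctrl values of these cells was not tested.

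The comparison of CL with Ctrl asks how the genes stood in glands of mice given the liposomes. Over all retained cells the 10 genes together had 950 UMIs in Ctrl (11 CPM) and 1658 in CL (14.1 CPM), a log2 ratio of CL over Ctrl of 0.35 (0.24 to 0.47). Of the 10 genes 6 had a log2 ratio of at least 1 and 0 a ratio of at most -1, where 3.65% and 3.66% of all 17118 genes with at least 20 UMIs did. Their median was 1.82, against -0.05 for those genes. The minimum of 20 UMIs sums both libraries, and Xcr1, Clec9a, Flt3 and Siglech, with 2 to 4 UMIs in Ctrl, met it mainly through CL. The count of 6 and the median are therefore descriptive and no test. Xcr1 and Clec9a each had 2 UMIs in Ctrl and 23 in CL (3.07, 1.06 to 6.20). Wdfy4 had 9 and 86 (2.81, 1.82 to 3.98), Flt3 4 and 25 (2.19, 0.66 to 4.18), Siglech 3 and 18 (2.14, 0.36 to 4.54), and Ccr7 76 and 293 (1.5, 1.13 to 1.88). Itgax stood at 0.44 (0.19 to 0.71), Cd209a at 0.51 (-0.38 to 1.44), Zbtb46 at 0.11 (-0.11 to 0.33) and Fscn1 at -0.37 (-0.58 to -0.16). Cd209a rests on 1 Ctrl cell with 14 of the 17 UMIs, and without the highest cell of each library it stood at 2.55 (0.83 to 4.93). With the removed doublets added back, 4 of the 10 genes had a log2 ratio of at least 1. Xcr1 then had 9 and 24 UMIs, at 0.96 (-0.19 to 2.25), Ccr7 118 and 315, at 0.97 (0.66 to 1.28), and Cd209a 39 in each library, at -0.45 (-1.13 to 0.23). Wdfy4 stood at 1.94 (1.18 to 2.78) and Flt3 at 1.44 (0.20 to 2.89). The immune-like share of the cells was itself higher in CL, and in these sums more immune-like cells and more RNA per cell cannot be told apart.

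Within immune-like cells the sum stood lower in CL. The genes had 311 UMIs in Ctrl (202 CPM) and 867 in CL (143 CPM), a log2 ratio of -0.50 (-0.69 to -0.31). Without Itgax, the member with most of these UMIs, it was 0.079. Of 9 genes with at least 20 UMIs, 3 had a ratio of at least 1 and 2 a ratio of at most -1, where 5.98% and 3.39% of all 10517 genes did, and their median was 0.52 against 0.03. Wdfy4 stood higher in CL by UMIs (1.41, 0.37 to 2.67), and by its share of cells, 6 of 275 and 47 of 1007, the log2 ratio was 1.10 (-0.13 to 2.61). Clec9a (1.41, -0.62 to 4.55) and Xcr1 (1.34, -0.70 to 4.48) had intervals that reached below 0. Both had 2 UMIs in Ctrl and met the minimum of 20 only through CL. Itgax stood lower in CL by UMIs (-1.10, -1.36 to -0.83) and by its share of cells, 85 of 275 and 192 of 1007. Cd209a stood at -1.07 (-1.96 to -0.13), and without the highest cell of each library at 0.95. Ccr7 stood at 0.03 (-0.35 to 0.43), and without its own highest cells, of which that of Ctrl held 25 of 71 UMIs, at 0.54 (0.09 to 1.03), an interval above 0. Zbtb46 stood at -0.40 (-1.37 to 0.68), Flt3 at 0.82 (-0.92 to 3.21) and Siglech at 0.52 (-1.27 to 2.93). All 3 Ctrl UMIs of Flt3 lay in 1 cell. Without the highest cell of each library Flt3 had no ratio and an interval that began at 0.058, and Siglech stood at 1.72 (-1.02 to 7.13).

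**Figure D4:**
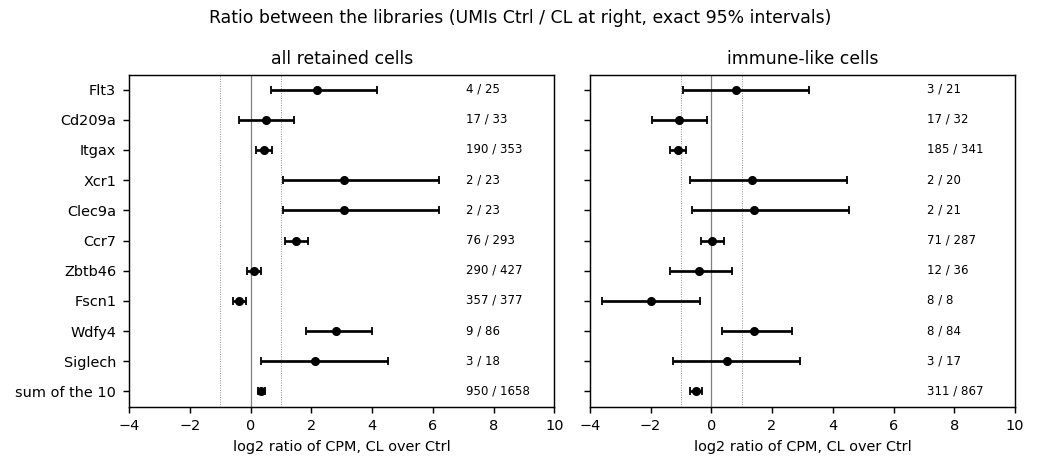
Log2 ratio of CPM, CL over Ctrl, for each of the 10 genes and for their sum, in all retained cells at left and in immune-like cells at right. Points are ratios, bars exact 95% intervals, and the UMIs of Ctrl and CL stand at the right; Itgax lies above 0 at left and below -1 at right, and Wdfy4 lies above 1 in both.

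The make-up of the immune-like cells differed between libraries, with macrophage-like cells at 14.9% (10.9 to 19.7) in Ctrl and 4.27% (3.11 to 5.71) in CL, and monocyte-like cells at 4% (2.01 to 7.04) and 16.4% (14.2 to 18.8). With the classes weighted alike in both libraries, the ratio of Itgax was -0.67, that of Wdfy4 1.27 and that of the sum -0.32. Within classes, Itgax stood lower in CL in T- and NK-like cells (-0.72, -1.11 to -0.32), in monocyte-like cells (-2.35, -3.77 to -0.59, from 5 and 23 UMIs) and in DC-marker cells (-1.47, -2.50 to -0.35). Without the highest cell of each library, the intervals in monocyte-like and DC-marker cells held 0, at -1.30 (-3.34 to 1.84) and -1.5 (-2.86 to 0.10). Among T- and NK-like cells, those with a Cd3 UMI (113 of 213 in Ctrl and 496 of 735 in CL) did not stand lower in CL, as given above. Cells with NK genes and no Cd3 did, and those with neither had 122 CPM (85.6 to 169) in Ctrl and 87.9 CPM (67.9 to 112) in CL, with overlapping intervals. Sub-clusters of this class also differed in size between libraries. The sub-cluster led by Gzma held 61 Ctrl and 72 CL cells, and the largest held 39 and 208. The part of this in the Itgax values was not tested. In macrophage-like cells the interval of Itgax held 0 (-0.20, -0.62 to 0.22). Ccr7 stood higher in macrophage-like cells of CL (2.70, 1.49 to 4.20), and without the highest cell of each library at 3.89. In DC-marker cells Ccr7 stood lower in CL (-1.96, -2.69 to -1.21), and without the highest cells at 0.28. UMIs of 1 cell are not independent, so the intervals are too narrow where a single cell holds most of a count.

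Cells of the gland also carried genes of the ligands. Flt3l had 79.6% of its UMIs in hormone-responsive luminal-like cells, at 5.21 CPM in Ctrl and 4.93 CPM in CL (log2 ratio -0.08, -0.32 to 0.17). In T- and NK-like cells Flt3l stood at 9.22 and 11.7 CPM and in fibroblast-like cells at 7.57 and 3.82 CPM. The hormone-responsive cells held 54.4% of all UMIs. Xcl1, the ligand gene of Xcr1, had 95.5% of its UMIs in T- and NK-like cells, at 1358 CPM in Ctrl and 726 CPM in CL (-0.90, -0.99 to -0.81). Over all retained cells Xcl1 stood higher in CL, at 17.8 and 24.9 CPM (0.48, 0.40 to 0.58). Of the ligand genes of Ccr7, Ccl19 had 77.9% of its UMIs in fibroblast-like cells (29.2 and 30.6 CPM). A cluster left unnamed, of 143 cells, with marker scores closest to fibroblast (4.35) and pericyte (2.90) lists, held 25 Ccl19 UMIs in Ctrl (66.4 CPM) and 1 in CL (2.50 CPM), and over all retained cells the ratio of Ccl19 was -1.10 (-1.63 to -0.57). The other Ccr7 ligand gene, Ccl21a, lay mainly in endothelial-like cells (115 and 195 CPM). Csf2rb, a receptor gene for GM-CSF, stood at 630.1 CPM in DC-marker cells of Ctrl and 483 CPM in those of CL.

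Among genes that are not members, the 15 highest in the 56 co-detecting immune-like cells of CL over the 669 with no member UMI were Mmp13, Dcstamp, Rnf180, Cd207, H2-Ob, Dnase1l3, Cadm1, Mmp12, Pkib, Ocstamp, Slamf9, Cxcl1, C1qa, H2-Eb1 and Zmynd15. The sets differ in make-up: 21 of the 56 cells were DC-marker and 15 macrophage-like, while most cells with no member UMI were T- and NK-like, a class of which 213 of 735 cells in CL had one. Mmp13, a collagenase gene, had 200 UMIs in 12 of the co-detecting cells (280.2 CPM) and 1 UMI in the others, and in Ctrl 61 and 3 UMIs. Dcstamp and Ocstamp, genes of cell fusion in the myeloid lineage, had log2 ratios of 6.79 (4.85 to 9.87) and 4.48 (3.36 to 5.79) in CL. Cd207, the gene of langerin, had 59 UMIs in 6 co-detecting cells of CL and 0 in the DC-marker cells. C1qa, at 4.25 (4.06 to 4.45), had UMIs in 16 of the 56 cells, and the class II gene H2-Eb1, at 4.23 (4.16 to 4.31), in 42. In Ctrl the 14 of these genes with UMIs in both sets had ratios from 0.75 to 6.96.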

How the data were processed

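Raw counts of UMIs per gene and barcode were used as deposited, in unfiltered matrices that the authors made with Cell Ranger on mm10 (version 2.1.1 in the submitters' processing notes, another in the file headers). Total depth was 118743318 UMIs in Ctrl and 155765480 in CL. The deposited barcode lists do not index the matrices, so the 7217 and 10555 barcodes with most UMIs, as many as listed, were taken as candidates, and 18 barcodes stood on both lists. A cell needed 500 or more genes and a mitochondrial share of no more than 15%, which left 6297 and 9335. Scrublet in scanpy 1.11.5 removed 360 and 509 doublets at the threshold of the Ctrl library, 0.2099, chosen for both after its own threshold had marked 0 in CL. The cells were clustered on 2000 variable genes, 30 components and 15 neighbours (Leiden, resolution 1.0) without the 10 genes, and immune-like cells were clustered again. Classes were named from marker lists, with at least 3 markers.

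CPM, ratios and co-detection were computed from summed UMIs, with a minimum of 20 UMIs for counts of ratios. The alternatives included edgeR 4.0.16 TMM factors. The computation was also run on simulated data, where the intervals held the true ratio for 88.4% to 98% of genes, by size of ratio. Those UMIs were drawn independently, so this does not test intervals where single cells hold most of a count. The simulated naming of cells used class profiles of these same data and is no test of the names. The members and gene lists were chosen with earlier results of these data known. All members are named, the genes of each list with most UMIs are given as examples, and the genes that lead co-detecting cells are the 15 highest with at least 30 UMIs there, without haemoglobin, mitochondrial, ribosomal and sex-linked genes.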

Additional observations from a re-analysis of the deposited data

Results flagged for a closer look

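Some cells with several of the genes lay among the droplets removed as doublets, which enter no comparison above. UMIs of 2 or more genes were found in 9 of 360 removed Ctrl droplets (2.50%, 1.15 to 4.69) and in 10 of 509 of CL (1.96%, 0.946 to 3.58), above the share in epithelial-like cells. The Ctrl droplets held 22 Cd209a, 42 Ccr7, 7 Xcr1, 8 Wdfy4 and 3 Flt3 UMIs, where all retained Ctrl cells held 17, 76, 2, 9 and 4. Those of CL held 6, 22, 1, 3 and 1, where retained CL cells held 33, 293, 23, 86 and 25. Of the candidates that failed the filters, 1 of 920 in Ctrl and 0 of 1220 in CL co-detected, the latter with an exact upper limit of 0.302%.

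Ccr7 stood on opposite sides in the classes, with a log2 ratio of CL over Ctrl of 2.70 in macrophage-like cells and -1.96 in DC-marker cells. The difference was not tested, as each group is 1 library. Without the highest cell of each library the ratios were 3.89 and 0.28, so that the opposite direction rests on single cells.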

How the results depend on the processing

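Of 87 alternatives tried for the main shares, ratios and counts, 22 moved the value out of its main interval and 1 turned a ratio whose interval lay off 0. The count of genes has no interval, and its change from 6 to 4 is not among the 22. Leiden resolutions of 0.5 and 2.0 gave the same co-detecting cells as the main setting. The sub-cluster resolution of 0.5, which gave no value, is not among the 87. The share of immune-like cells with 2 or more genes became 0.800% in Ctrl and 1.5% in CL with cells thinned to 2000 UMIs, 0.369% and 0.604% at 1000 UMIs, 1.45% and 1.99% for 3 or more genes, 1.45% and 1.89% with 2 UMIs needed per gene, 0.727% and 1.49% without Itgax, Ccr7, Fscn1 and Wdfy4, and 14.5% and 15.8% without T- and NK-like cells. The log2 ratio of that share, -0.15 with an interval that held 0, turned to 0.91 when thinned to 2000 UMIs, 0.71 at 1000 UMIs, 0.45 for 3 or more genes, 0.38 with 2 UMIs needed, 1.03 without those 4 genes and 0.12 without T- and NK-like cells. For all retained cells, the log2 ratio of the summed level became 0.24 with a minimum of 200 genes, where the doublet threshold also moved to 0.6302, and 0.66 without Fscn1. For immune-like cells it became -0.87 with a minimum of 200 genes, -0.69 with a mitochondrial limit of 5%, -0.87 with doublets kept, -0.069 without Itgax, Ccr7, Fscn1 and Wdfy4, -0.78 without T- and NK-like cells, and 0.079, in the other direction, without Itgax alone. The DC-marker cells of CL were 4.07% of immune-like cells at a sub-cluster resolution of 2.0, those of Ctrl were 3.33% with doublets kept, and at a resolution of 0.5 no such sub-cluster was found, which leaves no value. With doublets kept, 4 genes in place of 6 had a log2 ratio of at least 1 over all cells. That alternative and those without T- and NK-like cells, without macrophage-like cells and without shared barcodes were chosen after seeing the data. Of the genes that lead co-detecting cells, 8 of 15 were shared with the list at a minimum of 60 UMIs. Except where the construction shows it, the cause was not tested. No paired analysis was possible because each group is 1 library. In the 5 DC-marker cells of Ctrl, 3 counts are 63.0 CPM, which limits what a gene at 0 can show.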
